A study of Mus musculus with 12 samples.

Results

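MiR-21 is a microRNA with 2 mature arms, mmu-miR-21-5p and mmu-miR-21-3p (miR-21-5p and miR-21-3p below), which are cut from opposite sides of the same hairpin precursor. The 2 arms are described here as 2 of the 1042 miRNAs in a table of small RNA libraries from 5 mouse cell types. They were chosen by measured abundance, since miR-21-5p took the largest mean share of miRNA reads over the 12 libraries. That mean is carried by MEFs and ESCs, so the share of miR-21-5p and its differences from those types are given as a description, with the SE and no p, and so is the ratio of the arms, which holds the same reads. Tests are given for miR-21-3p and, among the reprogrammed types, for miR-21-5p and the ratio. The name "most abundant miRNA" held for 5 of the 12 libraries one by one. It held in 3 of 3 MEF libraries, in 2 of 9 libraries of pluripotent cells and in 0 of 6 libraries of reprogrammed cells.

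The 5 cell types were profiled with small RNAs of 18 to 30 nt. There were 3 libraries of mouse embryonic fibroblasts (MEFs) from C57B6/129SvJae F1 mice and 3 libraries of embryonic stem cells (ESCs) of the E14 line from 129/ola mice. There were 2 libraries each of induced pluripotent stem cells (iPSCs), NT-ESCs and NT-iPSCs, all C57B6/129SvJae F1 and derived from the same MEFs. For the iPSCs, a lentivirus whose genes doxycycline switches on brought the OSKM set into MEFs (Oct4, Sox2, Klf4, c-Myc). Nuclear transfer gave the other types: NT-ESCs came from a MEF nucleus and NT-iPSCs from an iPSC nucleus placed in an enucleated oocyte. These 3 types are called reprogrammed cells below, and with ESCs they are the pluripotent types. All pluripotent types were grown on irradiated MEFs with LIF. Each type was a single line from which RNA was prepared more than once, so the p values below measure the spread between RNA batches and not between lines. ESCs also differed from the other types in strain, which cannot be told apart from cell type. The labels name no sequencing batch, so a separate preparation of the reprogrammed libraries, if there was one, cannot be told apart from cell type.

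MiRNAs are cut from a primary transcript by Drosha and then from the hairpin by Dicer, after which 1 strand is usually loaded into an Argonaute protein and guides it to target mRNAs through its seed. MiR-21-5p is the loaded strand in most cells. It is widely expressed in fibroblasts and in many tumours, and PDCD4 is among its known targets. MiR-21-3p is the strand that is mostly degraded.

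The mature sequences are shown because the arms have different seeds, and because the mouse genome holds a pair of related miR-21 genes. Capitals mark the seed (bases 2 to 8), and the sequences are those of RefSeq for GRCm38.p6, where the miR-21 of the table is named miR-21a.
miR-21-5p: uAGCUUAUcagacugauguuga
miR-21-3p: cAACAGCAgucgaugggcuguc
miR-21b: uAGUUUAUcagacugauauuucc
miR-21c: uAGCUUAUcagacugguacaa
In GRCm38.p6, miR-21-5p lies at chr11:86584120-86584141 and miR-21-3p at chr11:86584082-86584103, both on the minus strand. Their hairpin of 92 nt, Mir21a, spans chr11:86584067-86584158. In the GENCODE annotation of the same build it falls within exon 12 of the Vmp1 transcript Vmp1-201, inside the 3′ UTR and on the same strand. Vmp1 encodes a membrane protein that acts in autophagy. The table itself gives no coordinates. MiR-21b (chromosome 3) differs from miR-21-5p at 4 of 22 compared bases, including the seed. MiR-21c (chromosome 8) differs at 5 of 21 bases and has the same seed. Neither was analysed here, and how reads common to these near copies were assigned is not given in the sources used here. Of the 1042 miRNAs, 839 were matched to a RefSeq mature sequence, and among them no other miRNA shared the seed of either arm. MiR-590-5p, known as a seed relative of miR-21-5p, was not among the matched names and had 0 reads in all 12 libraries.

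The libraries held 4863365 to 8608689 reads on miRNAs. At these depths 3 reads equal 0.348 to 0.617 CPM (a read count scaled to the miRNA reads of its library). The deposited value was a variance stabilized, normalized read count (VST) on a log2 scale, and reads were recovered from it exactly. For the 11 miRNAs of the miR-290 and miR-302 families that mark pluripotent cells, the summed CPM was 0.869 to 9.06 in MEFs, with 4 to 8 of the 11 at 0 reads. It was 73664 to 89037 in ESCs and 115267 to 184054 in the reprogrammed cells. The members did not all follow this sum. At an adjusted p under 0.05 in limma, 5 of the 11 were higher and 2 lower in the mean of the reprogrammed types than in ESCs. In that comparison 82% of all miRNAs tested passed. Replicates of a type were further apart than counting alone allows, at 46.4 to 349.6 for chi-square over its degrees of freedom.

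MiR-21-5p took its largest share of miRNA reads in MEFs, a smaller one in ESCs and a few percent in the reprogrammed cells. Its share was 26.9%, 27.4% and 24.96% in MEF replicates 13, 14 and 15, from 2314441, 2151799 and 2010342 reads. In ESC replicates 2, 3 and 4 it was 11.3%, 11.7% and 9.51%, from 547504, 673856 and 477934 reads. It was 4.62% and 3.63% in iPSC replicates 62 and 63, 1.92% and 2.11% in NT-ESC replicates 71 and 72, and 3.03% and 3.33% in NT-iPSC replicates 51 and 52. The 3 MEF shares were all above the 3 ESC shares, which were all above the 6 shares of reprogrammed cells. MEFs had a mean of 26.4% ± 1.27 (SD, n = 3) and ESCs of 10.8% ± 1.15 (SD, n = 3). With n = 2 each, iPSCs had 4.12% ± 0.702, NT-ESCs 2.01% ± 0.139 and NT-iPSCs 3.18% ± 0.212 (mean ± SD). The exact Clopper-Pearson 95% interval of a share was at most 0.0623 percentage points wide, and it covers counting error only. The SD between RNA batches was larger than this in every cell type. In bulk RNA, fewer cells of a type and less RNA per cell cannot be told apart.

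**Figure D1:**
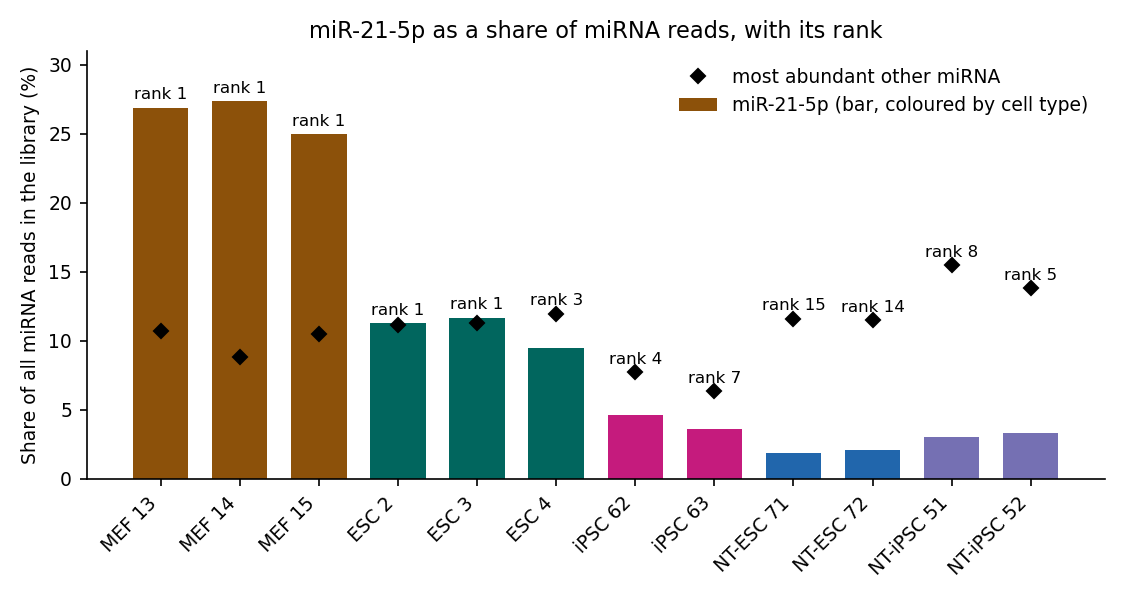
Share of all miRNA reads (percent) taken by miR-21-5p in each of the 12 libraries (bars, coloured by cell type) and by the most abundant other miRNA of that library (diamonds), with the rank of miR-21-5p above. The bars fall from 24.96% to 27.4% in MEFs to 1.92% to 4.62% in the reprogrammed cells, where all 6 diamonds stand above the bars.

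Among the 1042 miRNAs, miR-21-5p ranked first in all 3 MEF libraries, where the next miRNA was miR-206-3p, a skeletal muscle miRNA, and miR-21-5p had 2.51, 3.11 and 2.37 times its reads. In ESCs the most abundant other miRNA was miR-182-5p, a member of the miR-183 cluster. There, miR-21-5p had 1.01, 1.03 and 0.794 times the reads of miR-182-5p and ranked first, first and in place 3. First place in ESCs therefore rested on a difference smaller than the spread between the 3 batches. In iPSCs it ranked 4 and 7, with 0.599 times the reads of miR-669c-5p in replicate 62 and 0.569 times those of miR-293-3p, of the pluripotency-linked miR-290 cluster, in replicate 63. In NT-ESCs it ranked 15 and 14 and in NT-iPSCs 8 and 5. The most abundant miRNA of these 4 libraries was let-7f-5p, a member of the let-7 family, to which miR-21-5p stood at 0.165, 0.184, 0.195 and 0.241 times.

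MiR-21-3p was rare in every library. Its recovered reads were 1852, 1575 and 1673 in MEFs, 453, 444 and 460 in ESCs, 720 and 482 in iPSCs, 263 and 359 in NT-ESCs, and 90 and 345 in NT-iPSCs. As CPM this was 215, 200.2 and 208 in MEFs, 93.1, 76.9 and 91.5 in ESCs, 136 and 79.2 in iPSCs, 34.8 and 57.6 in NT-ESCs, and 12 and 47.5 in NT-iPSCs. The MEF values were the highest, the ESC and iPSC values overlapped, and NT-iPSC replicate 51 was the lowest of the 12 libraries. Its rank ran from 129 to 144 in MEFs, from 256 to 271 in ESCs and from 244 to 415 in the reprogrammed cells.

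Fibroblasts were compared with pluripotent cells to ask which miRNAs separate somatic from pluripotent cells, and both arms of miR-21 were higher in MEFs. The VST of miR-21-5p was 23.64, 23.44 and 23.38 in MEFs and 21.35, 21.47 and 21.09 in ESCs. The groups did not overlap. How many of all miRNAs were also without overlap was not counted, here or in the comparisons below. The difference for miR-21-5p was 2.18 (SE 0.15). For miR-21-3p the VST was 13.36, 13.02 and 13.15 in MEFs and 11.11, 10.91 and 11.07 in ESCs, again without overlap. Its difference was 2.15 (SE 0.41), with an adjusted p of 0.000512 in limma. Over the 732 miRNAs tested, 79% passed the threshold in this comparison, and 299 had a larger absolute difference than miR-21-5p. A call in this comparison did not set miR-21-3p apart from most miRNAs, and the median absolute difference over all of them was 1.74.

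MiR-21-5p was lower still in the reprogrammed cells. Its VST was 19.56 and 19.41 in iPSCs, 18.73 and 18.92 in NT-ESCs, and 19.61 and 19.72 in NT-iPSCs. MEFs exceeded iPSCs by 3.998 (SE 0.17), NT-ESCs by 4.66 (SE 0.17) and NT-iPSCs by 3.82 (SE 0.17). The groups did not overlap. In these 3 comparisons 87.8%, 84% and 83.1% of miRNAs passed the threshold. As a ratio of mean CPM, miR-21-5p was 2.44-fold higher in MEFs than in ESCs, 6.40-fold higher than in iPSCs, 13.1-fold higher than in NT-ESCs and 8.31-fold higher than in NT-iPSCs.

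The other arm moved in the same direction with a wider spread. The VST of miR-21-3p was 11.16 and 10.58 in iPSCs, 9.63 and 10.41 in NT-ESCs, and 8.33 and 10.27 in NT-iPSCs. MEFs exceeded these types by 2.31 (SE 0.45), 3.16 (SE 0.45) and 3.88 (SE 0.45), with adjusted p values in limma of 0.000545, 4.72e-05 and 8.54e-06. As a ratio of mean CPM, miR-21-3p in MEFs was 1.93-fold higher than in iPSCs, 4.50-fold higher than in NT-ESCs and 6.98-fold higher than in NT-iPSCs. Against the mean of the 4 pluripotent types, MEFs were higher by 3.67 (SE 0.12) for miR-21-5p and by 2.87 (SE 0.33, adjusted p = 6.41e-06 in limma) for miR-21-3p. In that comparison 86.5% of the 732 miRNAs passed.

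**Figure D2:**
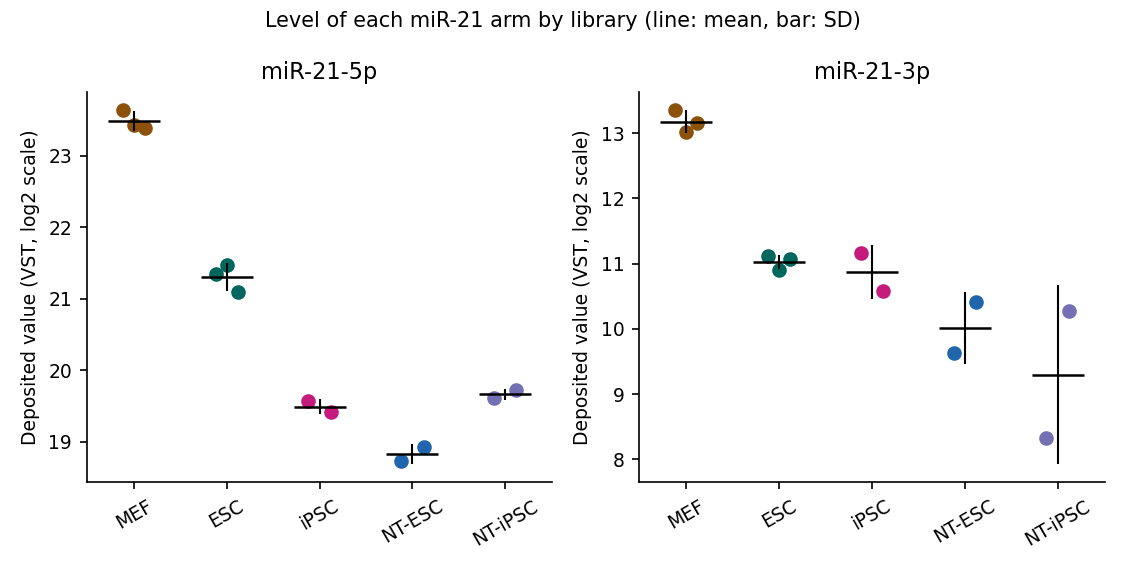
Deposited value (VST, log2 scale) of miR-21-5p (left) and miR-21-3p (right) in each library by cell type, with the mean (line) and SD (bar). For miR-21-5p the MEF, ESC and reprogrammed libraries form 3 separate ranges (23.38 to 23.64, 21.09 to 21.47 and 18.73 to 19.72), while for miR-21-3p the ESC and iPSC libraries overlap and the NT-iPSC pair spans 8.33 to 10.27.

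The size of the difference between MEFs and ESCs depended on how libraries were scaled and the values transformed. As log2 of CPM + 1, with total miRNA reads as the library size, it was 1.29 for miR-21-5p in place of 2.18. For miR-21-3p it was 1.25 in place of 2.15, and the difference of MEFs from iPSCs was 0.99 (adjusted p = 0.0340 in limma) in place of 2.31 and from the pluripotent mean 1.87 in place of 2.87. For miR-21-5p between MEFs and ESCs, upper quartile scaling gave 2.82, and trimmed mean (TMM-type) scaling gave 1.70. The median difference of all miRNAs between MEFs and ESCs moved with the scaling, from 0 with the deposited values to -0.53, 0.54 and -0.40 in the same order. Relative to that median, miR-21-5p was higher in MEFs by 2.18, 1.83, 2.28 and 2.10. Of the miRNAs called between MEFs and ESCs, 49.5% were higher in MEFs with the deposited values, 30.8% as log2 of CPM + 1, 60.6% with the upper quartile and 38.3% with the TMM-type scaling.

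ESCs and reprogrammed cells were compared to ask how miRNAs differ between natural and induced pluripotent cells. MiR-21-5p was lower in every reprogrammed type than in ESCs, with 6 of 6 libraries below the lowest ESC library. The share of all miRNAs separated in this way was not counted. The differences were -1.81 (SE 0.17) for iPSCs, -2.48 (SE 0.17) for NT-ESCs and -1.64 (SE 0.17) for NT-iPSCs. The shares of all miRNAs called were 75.8%, 75.8% and 77.6%. The mean of the reprogrammed types lay -1.98 (SE 0.13) from ESCs, in a comparison where 82% of miRNAs were called. As a ratio of mean CPM, miR-21-5p was 2.62-fold higher in ESCs than in iPSCs, 5.37-fold higher than in NT-ESCs and 3.41-fold higher than in NT-iPSCs. All these comparisons share the 3 ESC libraries.

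MiR-21-3p did not follow the 5p arm in each type. In iPSCs its difference from ESCs was -0.16, with a 95% interval from -1.16 to 0.84 and an adjusted p of 0.746 in limma, and the libraries overlapped. As log2 of CPM + 1 this difference was 0.25. In NT-ESCs the difference was -1.01 (adjusted p = 0.0610 in limma), which did not pass the threshold although the libraries did not overlap. As log2 of CPM + 1 (-0.94) and with TMM-type scaling (-1.13) it passed, and with upper quartile scaling (-0.78) it did not. It passed at the same size with an adjusted p of 0.00453 in limma when NT-iPSC replicate 51 was left out of the fit, and with 0.00463 without replicate 52. NT-iPSCs were lower by -1.73 (SE 0.45, adjusted p = 0.00469 in limma). That call rested on NT-iPSC replicate 51, without which the difference was -0.76 and the adjusted p in limma was 0.0580, the lone library being assumed to vary like the other groups. The mean of the reprogrammed types was lower than ESCs by -0.97 (SE 0.35, adjusted p = 0.0240 in limma), and the 6 libraries overlapped the 3 of ESCs. This call was lost with upper quartile scaling (-0.75, adjusted p = 0.0535 in limma). It was also lost without ESC replicate 2 (-0.93), ESC replicate 4 (-0.95), iPSC replicate 63 (-0.87) or NT-ESC replicate 71 (-0.84).

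The comparisons among the reprogrammed types ask whether the route to pluripotency left a difference. MiR-21-5p was lower in NT-ESCs than in iPSCs by -0.66 (SE 0.18, adjusted p = 0.0216 in limma), where 25.7% of miRNAs were called, and by -1.03 (adjusted p = 0.000360 in limma) as log2 of CPM + 1. NT-iPSCs exceeded NT-ESCs by 0.84 (SE 0.18, adjusted p = 0.0203 in limma), where 12.8% were called. With TMM-type scaling neither passed, at -0.64 (adjusted p = 0.0712 in limma) and 0.78 (adjusted p = 0.0554 in limma). Both calls were lost when any 1 of the 4 libraries compared was left out, with values between -0.76 and -0.56 and between 0.74 and 0.94 over all libraries left out in turn. NT-iPSCs and iPSCs differed by 0.18 (95% interval -0.23 to 0.58, adjusted p = 0.537 in limma), and this difference had the opposite sign, -0.37, as log2 of CPM + 1. For miR-21-3p, NT-iPSCs were lower than iPSCs by -1.57 (SE 0.50, adjusted p = 0.0379 in limma), where 26.5% of miRNAs were called. Without NT-iPSC replicate 51 it was -0.60 (adjusted p = 0.274 in limma). The call was also lost without iPSC replicate 62 (-1.28) or 63 (-1.86), and at an unmoved size without MEF replicate 15 or any of the 3 ESC libraries, with an adjusted p of 0.0504 to 0.0570 in limma. The other pairs gave -0.85 for NT-ESCs against iPSCs and -0.72 for NT-iPSCs against NT-ESCs, with adjusted p values in limma of 0.247 and 0.365. The first of these passed as log2 of CPM + 1 (-1.20, adjusted p = 0.0442 in limma) and with only the groups compared (-0.85, adjusted p = 0.0261 in limma). The last difference was 0.26 without NT-iPSC replicate 51 and -1.69 (adjusted p = 0.0293 in limma) without replicate 52.

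**Figure D3:**
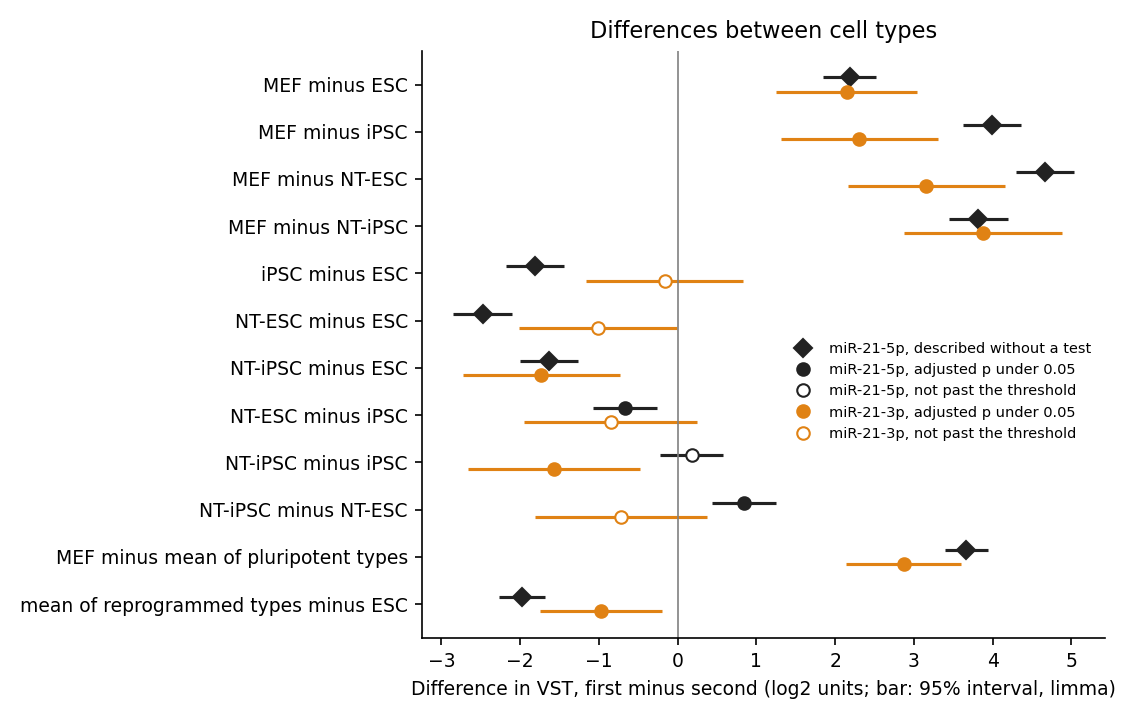
Difference in VST (log2 units, first cell type minus second) of miR-21-5p (black) and miR-21-3p (orange) in 12 comparisons, with 95% intervals from limma. Circles are tested differences, filled where the adjusted p is under 0.05, and diamonds are described without a test. The values of miR-21-5p run from -2.48 to 4.66, and the intervals of miR-21-3p are wider throughout.

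In order of VST, miR-21-5p stood highest in MEFs, then in ESCs, NT-iPSCs, iPSCs and NT-ESCs. Among neighbours in that order, NT-iPSCs and iPSCs did not differ beyond their spread, and on CPM their order was the reverse. MiR-21-3p stood highest in MEFs, then in ESCs, iPSCs, NT-ESCs and NT-iPSCs, and on CPM iPSCs stood above ESCs. With the deposited values and all libraries, no neighbours in that order after MEFs and ESCs passed the threshold.

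The ratio of the arms does not depend on library scaling. In every library more than 99.7% of miR-21 reads were of the 5p arm. The reads of miR-21-5p per read of miR-21-3p were 1250, 1366 and 1202 in MEFs, and 1209, 1518 and 1039 in ESCs. They were 340 and 458 in iPSCs, 551 and 367 in NT-ESCs, and 2522 and 700 in NT-iPSCs. MEF and ESC libraries overlapped, all 4 iPSC and NT-ESC libraries lay below them, and the NT-iPSC libraries lay on either side. Among the 263 hairpins with enough reads on both arms, the ratio of miR-21 ranked between 10 and 24 from the most 5p-dominant.

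On a log2 scale MEFs had a mean ratio of 10.31 ± 0.09 (SD, n = 3) and ESCs of 10.27 ± 0.28 (SD, n = 3). With n = 2 each, iPSCs had 8.62 ± 0.30, NT-ESCs 8.81 ± 0.41 and NT-iPSCs 10.37 ± 1.30 (mean ± SD). The ratio differed from that of ESCs by -1.65 (SE 0.49) in iPSCs and -1.46 (SE 0.49) in NT-ESCs. MEFs stood above iPSCs by 1.69 (SE 0.49) and above NT-ESCs by 1.5 (SE 0.49). Between MEFs and ESCs the difference was 0.04 (SE 0.44). NT-iPSCs differed from ESCs by 0.10 (SE 0.49), by -0.83 without replicate 51, which held 90 reads of miR-21-3p, and by 1.02 without replicate 52. The mean of the reprogrammed types differed from ESCs by -1.01 (SE 0.38), and MEFs from the mean of all pluripotent types by 0.79 (SE 0.36).

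Among the reprogrammed types the ratio was tested in limma over the 263 hairpins. NT-iPSCs exceeded iPSCs by 1.75 and NT-ESCs by 1.56, with adjusted p values in limma of 0.223 and 0.436. Without NT-iPSC replicate 52 these were 2.67 and 2.48, with adjusted p values in limma of 0.0383 and 0.0495, and without replicate 51 they were 0.83 and 0.64. NT-ESCs and iPSCs differed by 0.19 (SE 0.53, adjusted p = 0.939 in limma).

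Changes in arm ratio were widespread between the same sets of libraries. Of the 263 hairpins, 75.7%, 76% and 76.4% were called between ESCs and iPSCs, NT-ESCs and NT-iPSCs, and 72.2%, 73.8% and 74.9% between MEFs and these types. Between MEFs and ESCs 27.8% were called, 81% for the reprogrammed mean against ESCs and 77.9% for MEFs against the pluripotent mean. Among the 3 pairs of reprogrammed types limma called 0 hairpins, with 29 (NT-ESC and iPSC), 33 (NT-iPSC and iPSC) and 15 (NT-iPSC and NT-ESC) at an unadjusted p under 0.05. With differences of the deposited values in place of read ratios, 1 hairpin was called in the last pair. Leaving out 1 library gave up to 2 hairpins for NT-ESCs and iPSCs (without NT-ESC replicate 72), 4 for NT-iPSCs and iPSCs (without NT-iPSC replicate 52) and 3 for NT-iPSCs and NT-ESCs (without iPSC replicate 62 or 63). The part of this shift over all hairpins in the ratio of miR-21 was not tested. The labels name no sequencing batch or date, so no comparison could be made within one. In the study's read statistics, each of the 6 libraries of reprogrammed cells had more total reads than any of the other 6. Each also had a larger percent of 5′ adaptor contaminants and a smaller percent of reads without the 3′ adaptor. The part of this in the differences was not tested. If the 6 libraries of reprogrammed cells were prepared or sequenced apart from the other 6, that and cell type cannot be told apart in any comparison between these sets.

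**Figure D4:**
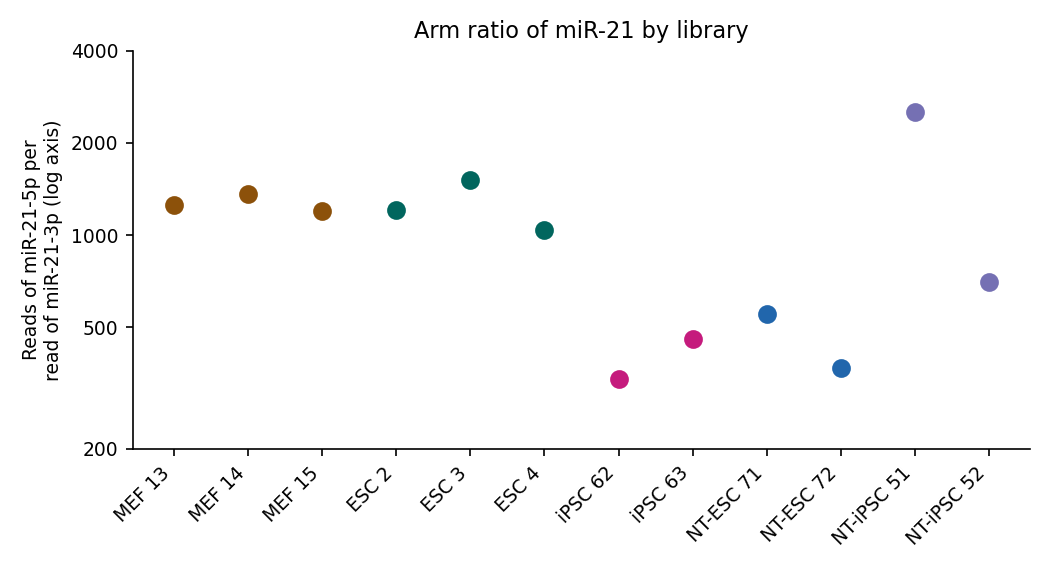
Reads of miR-21-5p per read of miR-21-3p in each library (log axis), coloured by cell type. MEF and ESC libraries lie between 1039 and 1518 and iPSC and NT-ESC libraries between 340 and 551, while the NT-iPSC libraries lie at 2522 and 700.

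Because the pluripotent cells were grown on irradiated MEFs, miRNAs of mesenchymal cells were set beside miR-21. The list holds 15 miRNAs, among them miR-143-3p, miR-34c-5p, miR-196a-5p and miR-199a-3p. Summed over the list, MEFs had a CPM of 93626 to 125224, ESCs one of 63967 to 69319 and reprogrammed cells one of 25306 to 53614, and none was at 0 reads in any library. All 15 were called higher in MEFs than in ESCs by limma on the VST, as were 39.1% of all miRNAs tested, with a median difference of 2.36 against 0 for all miRNAs tested. On mean CPM, 12 of the 15 were lower in ESCs than in MEFs and 3 were higher. Between ESCs and the mean of the reprogrammed types, 8 were lower in reprogrammed cells, 6 were higher and 1 was not called, which is near the 82% of all miRNAs called in that comparison. The part of feeder cells in the level of miR-21 was not tested.

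MiR-21-5p in ESCs stood at 41.0% of its mean CPM in MEFs. The 15 mesenchymal miRNAs ran from 9.29% (miR-199b-5p) to 111% (miR-196a-5p), with a median of 36.7%, and 5 of them stood above miR-21-5p. In iPSCs, NT-ESCs and NT-iPSCs miR-21-5p stood at 15.6%, 7.63% and 12.03% of MEFs. Against the mean of the reprogrammed types, at 11.8%, the list ran from 1.60% (miR-10b-5p) to 266% (miR-199a-3p), with 9 above miR-21-5p and 6 below. The mature sequence of miR-199a-3p is also that of miR-199b-3p, so its reads cannot be assigned to 1 hairpin.

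The MEF libraries also held miRNAs of skeletal muscle. Summed over 4 muscle miRNAs, MEFs had a CPM of 106569 to 126969, ESCs one of 489 to 569 and reprogrammed cells one of 1846 to 2521, with miR-206-3p at 100098 CPM on average in MEFs. MiR-206-3p was at 0.346% of its MEF level in ESCs and 0.257% in reprogrammed cells, miR-1a-3p at 0.995% and 9.87%, miR-133a-3p at 0.325% and 3.86%, and miR-133b-3p at 0 and 2.81%. Between ESCs and the mean of the reprogrammed types, 3 of the 4 were called higher in reprogrammed cells and 1 lower, where 82% of all miRNAs were called. By direction, 322 of all 732 miRNAs tested were called higher there and 278 lower. All 4 were called higher in MEFs than in each pluripotent type, as were 39.1% of all miRNAs against ESCs, 39.2% against iPSCs, 38.1% against NT-ESCs and 36.3% against NT-iPSCs. Their part in the share of miR-21-5p was not tested. Blood and endothelial miRNAs, with 6 of 7 in the table, had a summed CPM between 340 and 370 in MEFs, between 2256 and 2317 in ESCs and between 277 and 614 in reprogrammed cells. Of these 6, 1 was called higher and 5 lower in MEFs than in ESCs, where 79% of all miRNAs were called (286 of 732 higher and 292 lower). Against each of the 3 reprogrammed types, 4 of the 6 were called higher in MEFs and 2 lower. Of all miRNAs, 39.2%, 38.1% and 36.3% were called higher in MEFs than in iPSCs, NT-ESCs and NT-iPSCs.

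**Figure D5:**
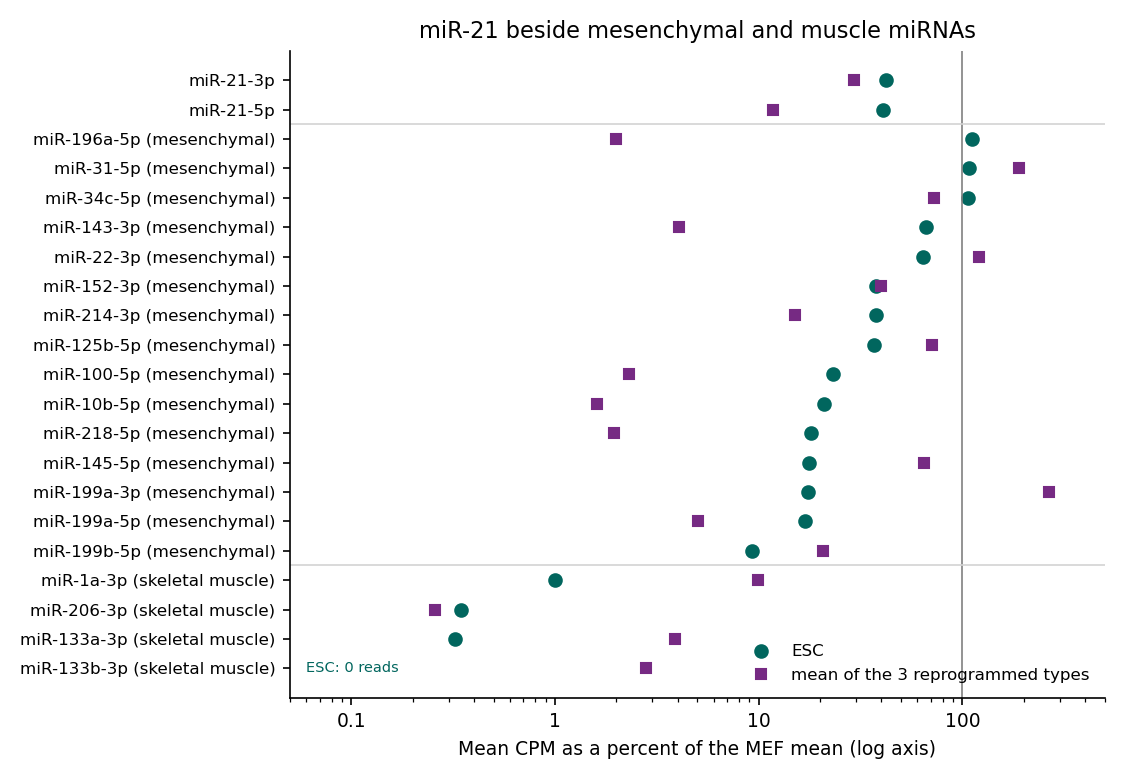
Mean CPM in ESCs (circles) and in the mean of the 3 reprogrammed types (squares) as a percent of the MEF mean (log axis) for both arms of miR-21, 15 mesenchymal miRNAs and 4 skeletal muscle miRNAs. MiR-21-5p, at 41.0% and 11.8%, lies within the range of the mesenchymal miRNAs (9.29% to 111% in ESCs, 1.60% to 266% in reprogrammed cells).

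The miRNAs whose VST was most like that of miR-21-5p over the 12 libraries, by Pearson's r, were miR-218-5p (0.989), miR-155-5p (0.986), miR-28-5p (0.983), miR-493-3p (0.982) and miR-193-5p (0.981). MiR-218-5p is on the mesenchymal list, and its mean VST was 13.05 in MEFs, 9.69 in ESCs and 6.47 in iPSCs. MiR-155-5p, known from activated immune cells, was at 15.48, 12.83 and 9.66 in the same types. These points share libraries and size factors, and the 5 names changed with the measure, since 1 of the 5 was also among the closest 5 by Spearman's rho and 1 by the means of the 5 types. MiR-21-3p was in place 114 for miR-21-5p, with r = 0.870. For miR-21-3p the closest were miR-135a-1-3p (0.937), miR-378-5p (0.933), miR-188-5p (0.929), miR-452-5p (0.925) and miR-128-2-5p (0.921), of which 2 were among the closest 5 by Spearman's rho and 3 by the means of the 5 types.

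MiR-21 is known for a step of maturation helped by SMAD proteins, which were described to bind the letters CAGAC in the stem of some primary miRNAs. A script found these letters at bases 9 to 13 of miR-21-5p, in capitals here, and not in miR-21-3p.
miR-21-5p: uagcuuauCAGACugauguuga
For the miRNAs of the table only the mature strand was searched, and 13 of the 839 matched miRNAs (1.55%) held the letters. Of all RefSeq mature sequences 1.84% held them, and of all RefSeq hairpins, which are longer, 7.96%. Of the 12 other miRNAs, among them miR-199a-5p and miR-214-3p of the mesenchymal list, 5 had enough reads to be tested. Between MEFs and ESCs, 2 of these 5 were called higher and 2 lower in MEFs, and in the mean of the reprogrammed types 1 was called higher and 4 lower than in ESCs. In either direction these counts are near the 79% and 82% of all miRNAs called. By direction, 286 of all 732 miRNAs tested were called higher and 292 lower in MEFs than in ESCs. In the mean of the reprogrammed types 322 were called higher and 278 lower than in ESCs. The median difference of these 5 was -0.68 in the first comparison and -1.53 in the second, where the medians of all miRNAs tested were 0 and 0.24.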

How the data were processed

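Small RNA libraries (18 to 30 nt) of 12 RNA samples were sequenced. Per the study's methods and the labels, the authors cleaned the tags of adaptors and contaminants and left out those of low quality, assigned reads to miRNAs, and used DESeq to normalize and variance stabilize them. They deposited 1 value on a log2 scale for each of 1042 miRNAs and 12 libraries. The labels name mm8. The aligner and miRBase release are not given in the sources used here.

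The VST was inverted, and 100% of the 9458 values above zero came out as whole reads (tolerance 0.05 read, largest deviation 0.0036). Transforming these reads again returned the deposited values to within 3e-06. At low reads the VST compresses changes. Depth was 4863365 to 8608689 miRNA reads per library. The Clopper-Pearson intervals cover counting error only, and they treat reads as independent molecules, which amplified reads are not.

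Cell types were compared with limma (3.58.1, R 4.3.3) on the deposited log2 values over 12 libraries in a model of 5 type means, empirical Bayes moderation with a trend, two-sided tests and Benjamini-Hochberg adjustment at 0.05 over 732 miRNAs (10 reads or more in 2 or more libraries). The test planned in case counts were deposited was not run, since the deposited unit was log2, and voom on the recovered reads was an alternative. Arm ratios, log2 of (5p reads + 0.5) over (3p reads + 0.5), were fitted the same way over 263 of 407 hairpins with both arms listed. Both procedures were tested on simulated data. Alternatives were other scalings, a pseudocount of 1 on normalized reads, voom, other filters, only the groups compared, and each library left out. Summaries used scipy 1.17.1, pandas 2.3.3 and numpy 2.4.6 under Python 3.11.15, and plots matplotlib 3.10.9.

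The 2 arms, the lists and the comparisons were chosen with earlier results of these data known. Named were the 2 arms, the most abundant other miRNA of each library, the 5 miRNAs most like each arm, miRNAs with either seed, and up to 4 of the most abundant members of a list. Outside this rule, miR-199b-5p, miR-10b-5p, miR-199a-5p and miR-214-3p were named after their values were seen.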

Additional observations from a re-analysis of the deposited data

How the results depend on the processing

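No paired analysis was possible because no 2 cell types have a replicate number in common. With log2(CPM + 1), which changes both the library size (total reads) and the transformation, NT-iPSC minus iPSC turned to -0.37 for miR-21-5p, and the counts of called miRNAs were 315 for NT-ESC minus iPSC (188 with the deposited values), 356 for NT-iPSC minus iPSC (194) and 157 for NT-iPSC minus NT-ESC (94). The last count was 172 with voom and 181 with only the groups compared. Log2(CPM + 1) also moved the share of calls higher in the first group from 44.6% to 32.8% (MEF minus iPSC), 45.4% to 35.2% (MEF minus NT-ESC), 46.0% to 32.3% (MEF minus the pluripotent mean), 48.9% to 23.8% (NT-ESC minus iPSC), 50.5% to 19.1% (NT-iPSC minus iPSC) and 43.6% to 26.1% (NT-iPSC minus NT-ESC). TMM-type scaling lost the calls of miR-21-5p for NT-ESC minus iPSC (-0.64) and NT-iPSC minus NT-ESC (0.78). For miR-21-3p, iPSC minus ESC turned to 0.25 with log2(CPM + 1) and 0.0021 with the upper quartile. NT-ESC minus ESC passed with log2(CPM + 1) (-0.94), TMM-type scaling (-1.13), log2 of normalized reads (-1.01), voom (-1.03) and only the groups compared (-1.01). NT-ESC minus iPSC passed with log2(CPM + 1) (-1.20) and only the groups compared (-0.85), NT-iPSC minus iPSC was lost with only the groups compared (-1.57), and the reprogrammed mean minus ESC was lost with the upper quartile (-0.75). The arm ratio of MEFs minus the pluripotent mean was 0.79 with at least 100 reads too. That filter leaves fewer hairpins, and 114 to 123 of them were called in the 8 comparisons of MEFs or ESCs with reprogrammed types or their means, against 190 to 213 before. Per 100 reads of other miRNAs, miR-21-5p had 35.9 in MEFs and 12.1 in ESCs, and miR-21-3p 0.0282 and 0.00978. The cause of these changes was not tested.

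With 1 library left out, NT-iPSC minus iPSC ran from 0.10 to 0.25 for miR-21-5p, and NT-ESC minus iPSC from -1.24 to -0.46 for miR-21-3p. Leaving out each library in turn also gave, for miR-21-5p, -0.76 to -0.56 for NT-ESC minus iPSC and 0.74 to 0.94 for NT-iPSC minus NT-ESC. For miR-21-3p it gave -0.45 to 0.13 for iPSC minus ESC (0.13 without iPSC replicate 63), -1.41 to -0.62 for NT-ESC minus ESC, -2.70 to -0.76 for NT-iPSC minus ESC, -2.54 to -0.60 for NT-iPSC minus iPSC, -1.69 to 0.26 for NT-iPSC minus NT-ESC (0.26 without NT-iPSC replicate 51) and -1.29 to -0.64 for the reprogrammed mean minus ESC. For the arm ratio the ranges were -0.091 to 0.18 for MEF minus ESC (-0.016 without MEF replicate 14, -0.091 without ESC replicate 4), 1.47 to 1.90 for MEF minus iPSC, 1.21 to 1.79 for MEF minus NT-ESC, -0.98 to 0.86 for MEF minus NT-iPSC, -1.87 to -1.44 for iPSC minus ESC, -1.76 to -1.17 for NT-ESC minus ESC, -0.83 to 1.02 for NT-iPSC minus ESC (-0.031 without ESC replicate 4), -0.11 to 0.48 for NT-ESC minus iPSC (-0.028 without iPSC replicate 62), 0.83 to 2.67 for NT-iPSC minus iPSC, 0.64 to 2.48 for NT-iPSC minus NT-ESC (both past the threshold at the upper end, without NT-iPSC replicate 52), 0.56 to 1.02 for MEF minus the pluripotent mean and -1.31 to -0.70 for the reprogrammed mean minus ESC. The counts ran from 103 (without NT-ESC replicate 72) to 221 for NT-ESC minus iPSC and from 8 (without NT-ESC replicate 71) to 130 for NT-iPSC minus NT-ESC. The other differences of both arms kept their direction and, where tested, their side of the threshold under these alternatives. MiR-21-3p had 90 to 1852 reads, so its ratio carries more counting error than the level of miR-21-5p.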
